A study of Drosophila melanogaster with 6 samples.

Results

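The ion channel genes of the larval body wall were followed in RNA-seq of *Drosophila* cuticles, the dissected body wall with its skeletal muscles, from tumour-bearing and control larvae. Members were every gene of the deposited table whose symbol begins with ppk, ClC- or nAcR, together with a fixed set of named potassium, sodium, calcium and TRP channel genes. The table held 46 such genes of 11621, of which 33 of the 10074 genes with enough reads were tested and 13 were too low to test. Of the names sought, para, NaCP60E, Ih, Ca-alpha1T and Trpm had no row and were not analysed here, and sand was listed under its older symbol CG8713. The tumour-bearing group had 3 samples taken 10 days after egg laying, from larvae with y, w and ey-flp, the cassette act5C>y+>GFP over UAS-RasV12, and a tub-gal80 FRT82B chromosome over an FRT82B chromosome with scrib1. In these larvae ey-flp recombination makes clones in the eye discs that express oncogenic RasV12 and lack the polarity gene scrib, so the tumour lies in the eye discs and the sequenced body wall is host tissue. The control group had 3 samples of w1118 larvae, taken 7 days after egg laying and carrying neither transgenes nor tumour. Each sample pooled many cuticles with the viscera and the anterior end removed. Age, genetic background and sequencing lane changed together with the tumour, so their parts in any difference cannot be told apart. The study's methods describe a shift to a higher rearing temperature for larvae of this tumour genotype, and the sources used here do not say if the sequenced groups were reared alike.

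Ion channels let sodium, potassium, calcium or chloride cross the membrane, and together they set how readily a muscle or nerve cell fires. In the larval body wall, motor nerve endings release glutamate onto the muscles, voltage-gated calcium channels start both transmitter release and muscle excitation, and potassium channels bring the membrane back to rest. Sensory neurons whose dendrites lie on the epidermis use DEG/ENaC (ppk) and TRP channels to sense touch, heat, injury and chemicals. Nicotinic acetylcholine receptors serve mainly the central nervous system of insects, where acetylcholine is the chief excitatory transmitter.

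Among the 33 tested channel genes, 11 rose and 4 fell in tumour-bearing cuticles, and 18 did not pass the test (edgeR quasi-likelihood test, Benjamini-Hochberg adjusted p below 0.05). The genes that rose made up 33.3% of the tested members, beside 23.8% of all tested genes, and those that fell 12.1%, beside 23% of all tested genes. The median log2 fold change of tumour-bearing over control was 0.69 for the tested members and 0.01 for all tested genes. A positive value was found in 23 members and a negative value in 10. The filter on low reads was passed by ppk16, trpl and nAcRalpha-7E only through the tumour-bearing samples, which fixed their positive sign. Shawl, lower in tumour-bearing samples, was left out by the same filter. The median and the counts of members given here include the former genes and not Shawl. All 3 tumour-bearing samples lay above all 3 control samples in 15 of the 33 members, against 31.9% of all tested genes, and below them in 4, against 29.7% of all tested genes. In bulk tissue, fewer cells of a type and less RNA per cell cannot be told apart. The labels do not say whether the 3 samples of a group came from separate cultures, so the p-values cover no more than the spread among these samples.

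**Figure D1:**
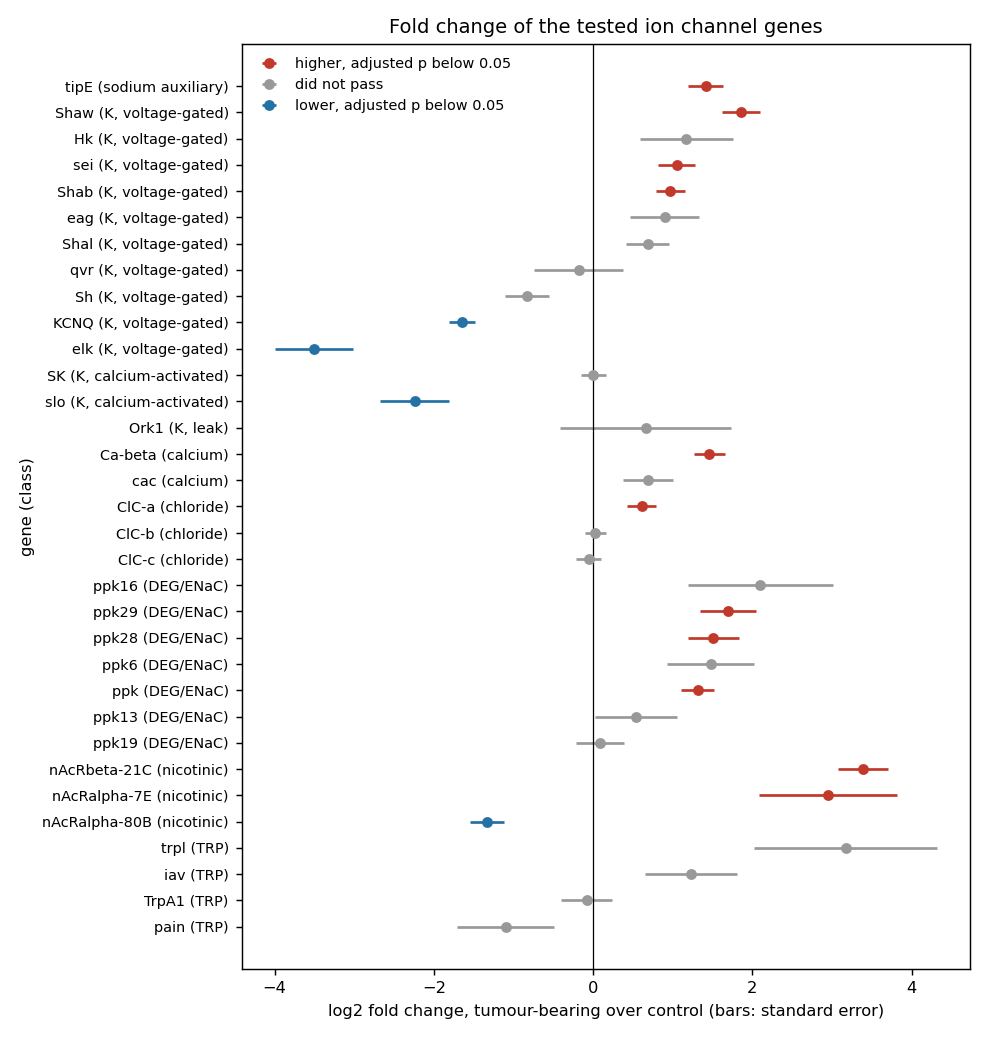
Log2 fold change of tumour-bearing over control (x axis, points with standard errors) for the 33 tested channel genes, grouped by class on the y axis, with red for higher, blue for lower and grey for genes that did not pass. The 7 DEG/ENaC genes all lie above 0, while the voltage-gated potassium channel genes run from -3.51 (elk) to 1.86 (Shaw). The DEG/ENaC gene ppk16 was tested only because of its reads in tumour-bearing samples.

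Libraries held 62617114 to 84149121 counts. In tumour-bearing samples the 20 most abundant genes took 6.66% to 7.55% of the counts, against 25.0% to 33.1% in control samples, so values below are normalized counts, scaled by edgeR's TMM factors (trimmed mean of M-values) to a common library size. The tissue label was met by its markers: 14 muscle genes and 9 epidermal genes of the marker lists were tested, and their summed normalized counts were large in every sample. In muscle the sum ran from 1253080 to 1709160 in tumour-bearing samples and from 3681440 to 14094200 in control samples, and in epidermis from 85796 to 108430 and from 9675330 to 18037600. The epidermal sum of tumour-bearing samples lay below their tracheal marker sum, 140327 to 160204. Their haemocyte marker sum ran from 102506 to 279311. The epidermal sum in control samples was mostly Lcp1 to Lcp4, with means of 4636910, 2442220, 2967110 and 4626250. These larval cuticle genes fell the most of that list. Cht7 (-2.49), sha (-2.10) and kkv (-1.34) also fell, by less, while grh (-0.39) and Cpr47Ef (2.99) did not pass.

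Potassium channels opened by voltage split in both directions: of 10 tested genes, Shaw, sei and Shab rose, elk and KCNQ fell, and 5 did not pass. These shares, 30% higher and 20% lower, were near the 23.8% and 23% over all tested genes. The fall of elk, which encodes a channel of the EAG-related ELK family, was the steepest of all tested members. Its normalized counts were 94.3, 40.4 and 83.7 in tumour-bearing samples, against 534, 678 and 1286 in control samples. The groups stood far apart, and the mean was 11.4-fold lower in tumour-bearing cuticles (log2 fold change -3.51 ± 0.49 SE, edgeR adjusted p = 0.0032). KCNQ encodes the fly counterpart of the M-current channels that damp excitability in vertebrate neurons. It had 1531, 1704 and 1694 normalized counts in tumour-bearing samples, against 5478, 4084 and 5905 in control samples. The tumour-bearing samples lay close together and below every control, with a log2 fold change of -1.65 ± 0.16 SE (edgeR adjusted p = 0.0012), and 798 bases (20.6%) of its exons are shared with an antisense RNA, CR45133, and 265 with CG18011 on the opposite strand. The elk gene lies on chromosome 2R, 17873939 to 17926695, and KCNQ on 2R, 10145897 to 10192394, in the BDGP6 annotation.

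Shaw, a channel of the Kv3 type, showed the largest rise of the voltage-gated potassium channels that passed. It had 365, 431 and 603 normalized counts in tumour-bearing samples, against 115.3, 133 and 137 in control samples. Every tumour-bearing sample exceeded every control more than the controls differed among themselves (log2 fold change 1.86 ± 0.24 SE, edgeR adjusted p = 0.0025). Shab, the delayed rectifier that carries much of the sustained potassium current of larval muscle, had 2731, 4150 and 2796 normalized counts in tumour-bearing samples, against 1742, 1600 and 1602 in control samples. Replicate 2 was the highest of the tumour-bearing samples, and the log2 fold change was 0.97 ± 0.18 SE (edgeR adjusted p = 0.0083). The ERG channel seizure (sei), whose loss makes adult flies seize when heated, had 250, 211 and 299 normalized counts in tumour-bearing samples, against 105, 123 and 139 in control samples. The groups did not overlap and the log2 fold change was 1.05 ± 0.24 SE (edgeR adjusted p = 0.0148), although without control replicate 1 it was 0.95 with an adjusted p of 0.0525. Its exons overlap 119 bases of ppk29 and 359 bases of gammaSnap1 on the opposite strand, and the library kit does not mark strand.

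The remaining voltage-gated genes included the classical A-type channels. Shaker (Sh), which gives larval muscle its fast transient potassium current, had 759, 1032 and 742 normalized counts in tumour-bearing samples, against 1507, 1013 and 1990 in control samples. Tumour-bearing replicate 2 overlapped control replicate 2, and the log2 fold change of -0.83 ± 0.28 SE fell just short of the threshold (edgeR adjusted p = 0.05002), but without control replicate 2 it was -1.06 (adjusted p = 0.0142). Shal, the other A-type channel, had 246, 232 and 333 normalized counts in tumour-bearing samples, against 177, 202 and 126 in control samples, without overlap but also without passing (log2 fold change 0.68 ± 0.27 SE, edgeR adjusted p = 0.0800). The Shaker partners Hyperkinetic (Hk), a beta subunit, and quiver (qvr), a membrane-anchored protein that raises Shaker current, had log2 fold changes of 1.17 ± 0.59 SE and -0.18 ± 0.56 SE, and both overlapped between groups. The sign of qvr was set by control replicate 2, without which its log2 fold change was 0.52. In eag the value was 0.90 ± 0.43 SE, also with overlap. Shawl was too low to test, with 2.82, 1.84 and 3.88 normalized counts in tumour-bearing samples and 13.8, 6.41 and 20.5 in control samples.

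The calcium-activated potassium channels differed from each other. Slowpoke (slo), the large-conductance channel that ends action potentials in nerve and muscle, fell: it had 401, 541 and 611 normalized counts in tumour-bearing samples, against 2188, 1260 and 3879 in control samples. The groups did not overlap, although the controls spread widely with replicate 3 the highest, and the log2 fold change was -2.24 ± 0.43 SE (edgeR adjusted p = 0.0090). SK, the small-conductance channel, had 1143, 1479 and 1167 normalized counts in tumour-bearing samples, against 1433, 1273 and 1085 in control samples. These ranges lay on top of each other, with a log2 fold change of -0.00 ± 0.16 SE. The leak channel Ork1, which holds cells at rest, was near the detection limit at 35.9, 10.1 and 11.6 normalized counts in tumour-bearing samples and 0, 12.8 and 22.7 in control samples, and its log2 fold change was 0.66 ± 1.07 SE (edgeR adjusted p = 0.633).

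**Figure D2:**
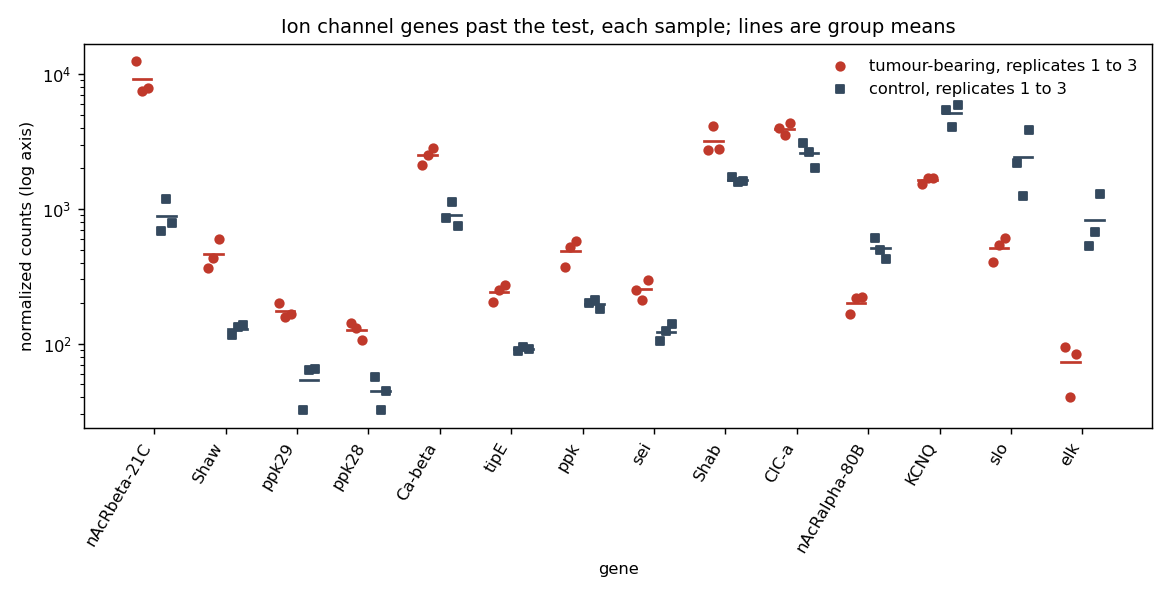
Normalized counts (log axis) of the 14 channel genes that passed the test with a mean of at least 50 in the higher group, with each tumour-bearing sample as a red circle, each control sample as a dark square and each group mean as a line. In none of the 14 do the groups overlap, and elk in control samples spreads from 534 to 1286.

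Auxiliary subunits of the sodium and calcium channels rose. TipE, which boosts the current of the Para sodium channel, had 203, 251 and 273 normalized counts in tumour-bearing samples, against 87.6, 94.6 and 90.6 in control samples. The controls were nearly equal and every tumour-bearing sample exceeded them (log2 fold change 1.41 ± 0.22 SE, edgeR adjusted p = 0.0044), but 777 bases (19.0%) of the tipE exons are shared with CG18675 on the same strand, which also rose (1.55). Ca-beta, the cytoplasmic subunit that carries voltage-gated calcium channels to the membrane, had 2124, 2529 and 2854 normalized counts in tumour-bearing samples, against 863, 1119 and 748 in control samples. The lowest tumour-bearing sample was well above the highest control, with a log2 fold change of 1.46 ± 0.19 SE (edgeR adjusted p = 0.0025). Cacophony (cac), the pore-forming channel of the presynaptic nerve ending, had 130, 230 and 208 normalized counts in tumour-bearing samples, against 138, 123 and 90.6 in control samples. Tumour-bearing replicate 1 fell among the controls, and the log2 fold change of 0.69 ± 0.32 SE did not pass (edgeR adjusted p = 0.120).

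Of the ClC chloride channel family, ClC-a rose and the others did not pass. ClC-a, which acts at the plasma membrane, had 4006, 3520 and 4331 normalized counts in tumour-bearing samples, against 3094, 2667 and 2013 in control samples. The groups were separate but near each other (log2 fold change 0.61 ± 0.18 SE, edgeR adjusted p = 0.0355). Without tumour-bearing replicate 1, 2 or 3 or without control replicate 2 the call was lost, with values from 0.54 to 0.69 and adjusted p from 0.0632 to 0.105. ClC-b and ClC-c are related to the mammalian transporters of lysosomes and endosomes. ClC-b had 4087, 3551 and 3068 normalized counts in tumour-bearing samples, against 3317, 3529 and 3642 in control samples, a log2 fold change of 0.03 ± 0.13 SE. ClC-c had 10770, 11171 and 9131 normalized counts in tumour-bearing samples, against 11194, 9103 and 12003 in control samples, a log2 fold change of -0.06 ± 0.15 SE. Under these factors neither gene's groups separated.

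All 7 tested DEG/ENaC genes had positive log2 fold changes, with a median of 1.47. Of these, 3 passed (42.9%, beside 23.8% higher over all tested genes), and the remaining 4 of the 11 in the table were too low to test. The filter on low reads was passed by ppk16 only through the tumour-bearing samples. It had 27, 13 and 11 raw counts there, against 0, 1 and 6 in control samples, so the filter fixed its sign. The pickpocket gene ppk marks the class IV dendritic arborization neurons that tile the larval epidermis and is required there for sensing harsh touch. It had 373, 522 and 575 normalized counts in tumour-bearing samples, against 199.9, 212 and 180 in control samples. The controls were tightly grouped below every tumour-bearing sample (log2 fold change 1.31 ± 0.21 SE, edgeR adjusted p = 0.0048). For ppk29, which takes part in pheromone sensing in adult males, there were 199, 157 and 167 normalized counts in tumour-bearing samples, against 32.3, 64.1 and 64.7 in control samples. Control replicate 1 was the lowest of all and no samples overlapped (log2 fold change 1.69 ± 0.35 SE, edgeR adjusted p = 0.0104), while its exons share 119 bases with sei and 70 with CG13563, which both rose too. The water taste channel gene ppk28 had 143, 130 and 106 normalized counts in tumour-bearing samples, against 56.9, 32.1 and 44.2 in control samples. That was again without overlap (log2 fold change 1.51 ± 0.32 SE, edgeR adjusted p = 0.0117). In the annotation used here, however, all of its exon sequence lies within an antisense RNA, CR44053, from which unstranded reads cannot be told apart.

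Among the other ppk genes none passed. In ppk6 there were 122, 66.1 and 64.4 normalized counts in tumour-bearing samples, against 12.3, 33.7 and 44.2 in control samples, a log2 fold change of 1.47 ± 0.55 SE (edgeR adjusted p = 0.0691), which passed without control replicate 3 (1.86, adjusted p = 0.0436). In ppk16 there were 19.0, 11.9 and 8.53 normalized counts in tumour-bearing samples, against 0, 1.60 and 6.47 in control samples, a log2 fold change of 2.10 ± 0.91 SE (edgeR adjusted p = 0.0994), which was 3.85 without control replicate 3 (adjusted p = 0.0284). Both genes separated the groups by small counts. Its neighbour ppk11, which with ppk16 serves homeostasis of transmitter release at the larval neuromuscular junction, had 20, 4 and 10 raw counts in tumour-bearing samples and 0 in all 3 control samples. That made ppk11 at least 6.57-fold higher, taking 3 counts over the control group as the floor, which covers counting error only. The annotation used here gives ppk11 and ppk16 the same 3212 exon bases. The deposited counts of ppk11 and ppk16 nevertheless differ, and how the counting separated their reads is not given. Values for ppk13 (0.53 ± 0.51 SE) and ppk19 (0.09 ± 0.31 SE) overlapped between groups. The pheromone sensing gene ppk23 had 47.3 normalized counts in tumour-bearing replicate 3 but 1.41 and 2.76 in the other two, against 6.15, 0 and 5.39 in control samples, and ppk10 and ppk25 stayed below 5 in every sample.

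Relatives listed under older symbols were not counted with the members. Of these 11 genes, 7 were tested, and they included changes in both directions. CG32792 (now ppk8) and CG31065 (now ppk31) rose, with log2 fold changes of 1.64 and 1.14. CG13278 (now ppk17) and CG31105 (now ppk22) fell, with log2 fold changes of -1.61 and -2.47. The calls of CG31065 (without any 1 sample) and CG31105 (without tumour-bearing replicate 1 or 2 or control replicate 1) were lost when samples were left out, and CG31105 was -3.12 without tumour-bearing replicate 3. CG8546 (now ppk26), which works with ppk in the class IV neurons, had 484, 625 and 620 normalized counts in tumour-bearing samples, against 444, 484 and 303 in control samples. Tumour-bearing replicate 1 touched the control range and the gene did not pass (log2 fold change 0.49, edgeR adjusted p = 0.113). With these genes in view, the uniformly positive direction held for the 7 tested genes named ppk in the table and not for the whole family.

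The nicotinic receptor genes held the largest rise of all tested members, but that value carries a doubt of annotation. The beta subunit gene nAcRbeta-21C (chromosome 2L, 545129 to 547096) had 12466, 7562 and 7871 normalized counts in tumour-bearing samples, against 684, 1186 and 788 in control samples. The groups were an order of magnitude apart, 10.5-fold higher in tumour-bearing cuticles (log2 fold change 3.39 ± 0.32 SE, edgeR adjusted p = 0.0011). All 1532 exon bases of the gene lie within exons of Ets21C, an ETS-family transcription factor gene on the opposite strand. Ets21C had 7847, 8488 and 6641 normalized counts in tumour-bearing samples, against 199.9, 133 and 150 in control samples (log2 fold change 5.57 ± 0.22 SE, edgeR adjusted p = 0.000256). Reads of the 2 genes cannot be told apart without strand, and how much of the nAcRbeta-21C count comes from Ets21C was not tested. Without nAcRbeta-21C, 10 of 32 tested members rose and 4 fell, beside 23.8% higher and 23% lower over all tested genes.

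The other nicotinic subunits were sparse. nAcRalpha-80B fell, with 167, 217 and 223 normalized counts in tumour-bearing samples, against 610, 494 and 425 in control samples. The groups were clear of each other, 2.52-fold lower in tumour-bearing cuticles (log2 fold change -1.33 ± 0.21 SE, edgeR adjusted p = 0.0046), in a gene whose exons include fragments of transposable elements. nAcRalpha-7E rose with 39.4, 37.7 and 62.0 normalized counts in tumour-bearing samples, against 0, 11.2 and 6.47 in control samples (log2 fold change 2.95 ± 0.86 SE, edgeR adjusted p = 0.0328). This call rested on few reads: it was lost without tumour-bearing replicate 1, 2 or 3 or control replicate 3, with adjusted p from 0.0522 to 0.0904, and the value was 3.67 without control replicate 2. The 6 further subunit genes of the class were too low to test. The most counted of these, nAcRbeta-96A, summed to 68 raw counts over the tumour-bearing samples and 21 over the control samples, and nAcRalpha-96Ab to 23 and 1, with 16 of the 23 in tumour-bearing replicate 3.

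None of the 4 tested TRP channel genes passed. Painless (pain), a TRPA channel required for sensing noxious heat and touch, had 2186, 2430 and 2816 normalized counts in tumour-bearing samples, against 3068, 2151 and 10664 in control samples. Control replicate 3 alone stood high, so that the log2 fold change of -1.10 ± 0.61 SE (edgeR adjusted p = 0.183) was -0.09 without it. Its relative TrpA1, a sensor of heat and irritants, had a log2 fold change of -0.08 ± 0.32 SE. Inactive (iav), which with nanchung (nan) forms the channel of the stretch-sensing chordotonal organs, had 40.8, 161 and 114 normalized counts in tumour-bearing samples, against 58.4, 27.2 and 48.5 in control samples. Tumour-bearing replicate 1 lay within the control range, and the log2 fold change was 1.23 ± 0.58 SE (edgeR adjusted p = 0.128), or 1.61 without that sample (adjusted p = 0.0446). The photoreceptor channel gene trpl had 15.5, 12.9 and 72.9 normalized counts in tumour-bearing samples, against 7.69, 0 and 3.24 in control samples (log2 fold change 3.17 ± 1.15 SE, edgeR adjusted p = 0.0634). Tumour-bearing replicate 3 was the highest for trpl as it was for ppk23, and without it the log2 fold change of trpl was 1.93 (adjusted p = 0.177). The companion photoreceptor gene trp was nearly silent, with 1 raw count over the tumour-bearing samples and 3 over the control samples.

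Divided by exon length, the order of levels among the members differed between the groups. In tumour-bearing cuticles nAcRbeta-21C led at 6070 normalized counts per kilobase, followed by ClC-c (2614), ClC-b (1348), pain (815), ClC-a (671) and KCNQ (424). The place of nAcRbeta-21C carries the doubt given above, since its exons lie within those of Ets21C. In control cuticles the order was ClC-c (2717), pain (1741), KCNQ (1331), ClC-b (1321), nAcRbeta-21C (578) and ClC-a (440), and KCNQ and ClC-b did not differ there beyond their spread. The place of pain rested on control replicate 3: over control replicates 1 and 2 it was in place 4 at 858, behind ClC-c (2561), ClC-b (1293) and KCNQ (1234). The potassium channel genes slo and elk stood far lower in the order of the 46 members in tumour-bearing cuticles: slo was in place 20 in tumour-bearing and 7 in control cuticles, and elk in place 27 and 8. Their levels were 51.0 and 13.6 normalized counts per kilobase in tumour-bearing cuticles, against 241 and 156 in control cuticles. Shaw was in place 12 in tumour-bearing and 21 in control cuticles, and ppk29 in place 11 and 20.

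**Figure D3:**
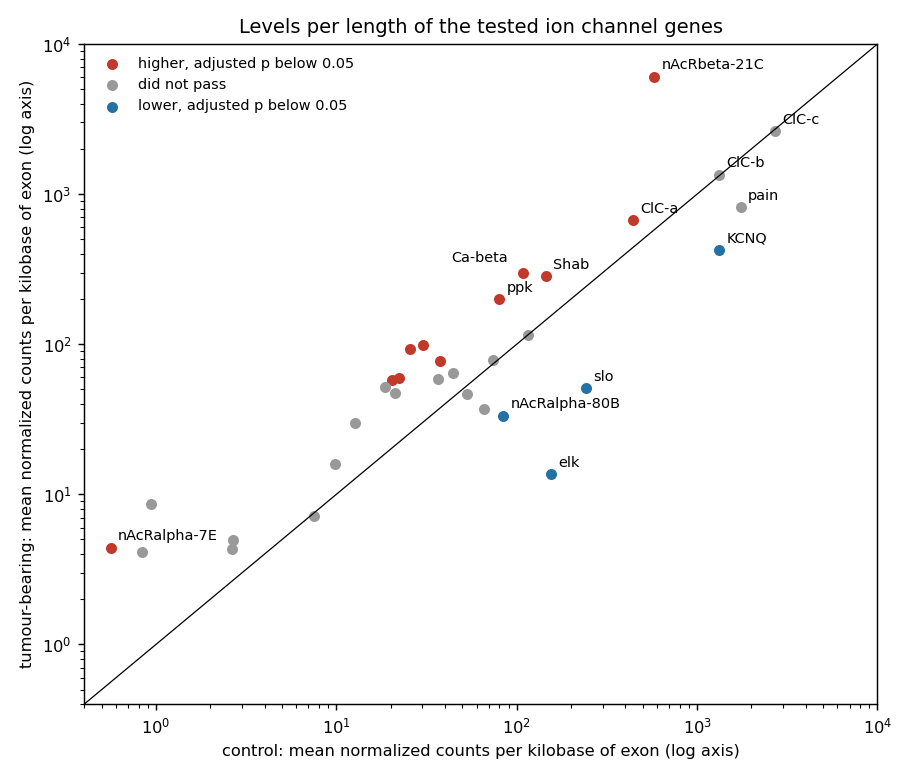
Mean normalized counts per kilobase of exon in tumour-bearing (y axis) and control samples (x axis), both on log axes, for the 33 tested channel genes; points above the diagonal are higher in tumour-bearing cuticles. ClC-c and ClC-b lie on the diagonal, elk and slo furthest below it. The highest point in tumour-bearing cuticles is nAcRbeta-21C, whose exons lie within those of Ets21C.

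Together the members held little of the RNA. They took 0.0833%, 0.0756% and 0.0788% of all counts in tumour-bearing samples, against 0.0348%, 0.0268% and 0.0524% in control samples. The shares did not overlap, and the exact permutation test, taking both directions, gave p = 0.1, the smallest that 3 samples against 3 allow. In normalized counts, which take account of the few genes that filled the control libraries, the sums were 43590 ± 1965 in tumour-bearing and 39115 ± 7722 in control samples (SD, n = 3 each, exact permutation p = 0.4). Without nAcRbeta-21C the sums were 34290 ± 1471 in tumour-bearing and 38229 ± 7887 in control samples (exact permutation p = 0.6), and neither difference exceeded the spread between samples. The share of all counts without that gene was 0.0605%, 0.0625% and 0.0639% in tumour-bearing samples, against 0.0342%, 0.0258% and 0.0515% in control samples, again without overlap (exact permutation p = 0.1).

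Control replicate 3 stood apart from the other controls in several channel genes. It was more than 2-fold above the mean of control replicates 1 and 2 in 5 tested members (ppk16, pain, Ork1, slo and elk) and more than 2-fold below it in 3. Sh and KCNQ were also highest there, by less. The low genes were Hk (71.2 normalized counts, against 221 and 388 in control replicates 1 and 2), qvr (93.9, against 235 and 481) and eag (16.2, against 27.7 and 41.7). The same sample had the smallest muscle marker sum of the controls, 3681440, against 8830990 and 14094200, and the smallest epidermal sum, 9675330, against 16688000 and 18037600. Without it, 13 of 37 tested members rose and 4 fell, beside 2590 higher and 2548 lower of 10305 genes, and elk (-3.07), slo (-1.75) and KCNQ (-1.56) still passed.

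**Figure D4:**
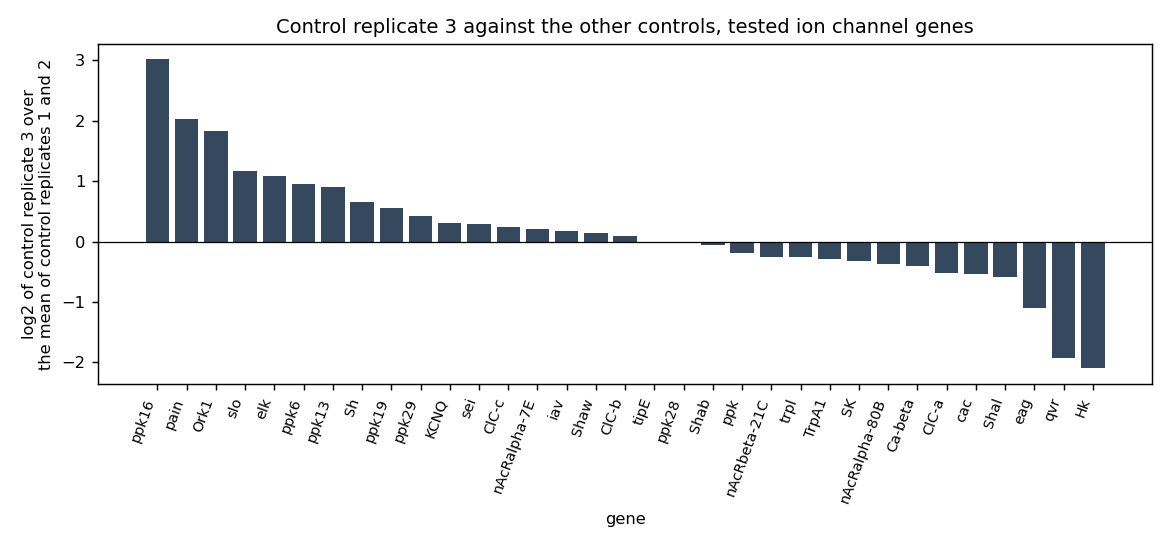
Log2 ratio of control replicate 3 over the mean of control replicates 1 and 2 (y axis, bars) for the tested channel genes, ordered by that ratio on the x axis. Pain, at 10664 against 3068 and 2151 normalized counts, is among the highest bars, and Hk and qvr are the lowest.

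The scaling of the libraries set where the line between rise and fall lay. Scaled by total counts alone, the median of all tested genes moved to 0.94 and 89.9% of the called genes were higher, against 50.8% with TMM factors. Under total counts 22 of 33 members rose and 2 fell, beside 6189 higher and 695 lower of all 10074 tested genes. The median member still lay above the median gene by 0.72, beside 0.68 with TMM factors. Elk (-2.62) and KCNQ (-0.74) fell under both, whereas nAcRalpha-80B (-0.39, adjusted p = 0.179) and slo (-1.38, adjusted p = 0.0510) lost their call, and ClC-b (0.96), ClC-c (0.85) and SK (0.94) were called higher. The last 3 lay close to the median gene under both scalings.

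**Figure D5:**
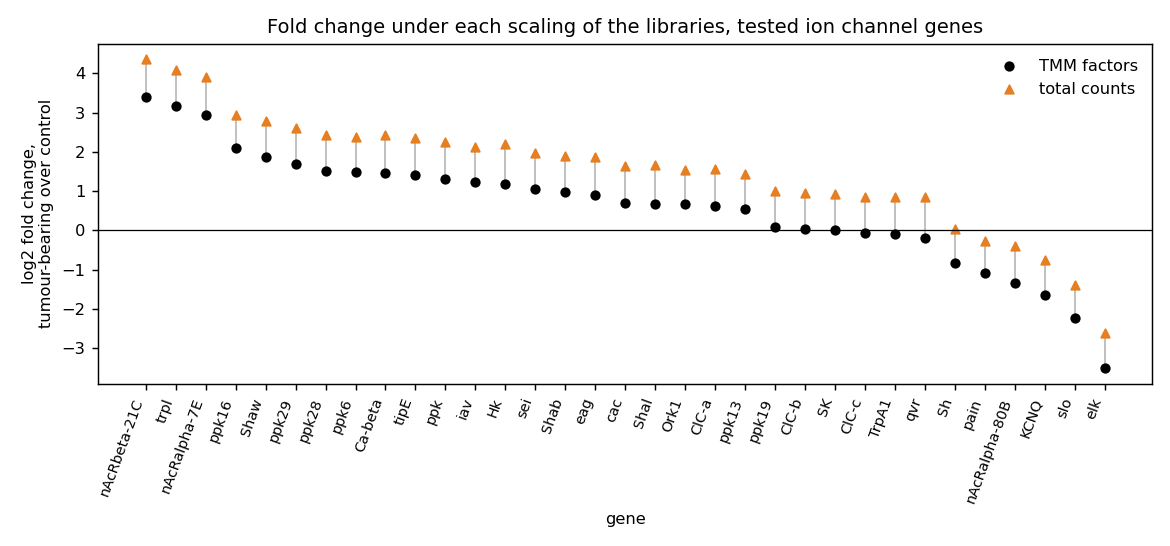
Log2 fold change of tumour-bearing over control (y axis) for the tested channel genes (x axis), with TMM factors as black circles and total counts as orange triangles. Total counts lift every gene by a similar amount, and elk and KCNQ stay below 0 under both.

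Other channel genes, listed apart from the members, filled in the picture around them. Over all tested genes, 23.8% were higher and 23% lower. Of 12 tested genes of calcium entry and release, 4 rose and 3 fell, of which na and CG18437 lost their calls without tumour-bearing replicate 1 or 2 or control replicate 1, and CG18437 also without control replicate 2. The alpha2delta subunit genes stj and CG4587 (stolid), which like Ca-beta are auxiliary to voltage-gated calcium channels, had the largest rises, with log2 fold changes of 3.76 and 2.98 (edgeR adjusted p = 0.00085 and 0.0010). Stj had 2994, 2253 and 1676 normalized counts in tumour-bearing samples, against 120, 199 and 192 in control samples. The pore-forming L-type gene Ca-alpha1D, which carries calcium current in larval muscle, had 3111, 3864 and 3467 normalized counts in tumour-bearing samples, against 3175, 3578 and 3036 in control samples, with a log2 fold change of 0.09. The ryanodine receptor gene (Rya-r44F), the calcium release channel of muscle, and the store-operated channel Orai (olf186-F) fell, with log2 fold changes of -2.30 and -1.37 (edgeR adjusted p = 0.0310 and 0.0070). The ryanodine receptor gene had 2389, 3483 and 4583 normalized counts in tumour-bearing samples, against 17024, 29315 and 4982 in control samples. Its control replicate 3 nearly touched the tumour-bearing range, and its call was lost without any 1 sample other than that control (adjusted p from 0.0658 to 0.0994), with a value of -1.67 without control replicate 2.

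The calls in the next lists likewise stand beside 23.8% higher and 23% lower over all tested genes. Among 11 other tested potassium channel genes, CG1688 (2.85) and CG42594 (1.29) rose and the inward rectifier Irk2 (-2.09) fell. Of 9 tested mechanosensory, TRP and chemosensory channel genes, wtrw (3.24), brv3 (2.82) and Ir25a (1.66) rose and pyx (-1.16) fell. The TRPA gene wtrw had 1890, 1494 and 1583 normalized counts in tumour-bearing samples, against 169, 189 and 166 in control samples, without overlap and with little spread in either group. Of 14 other tested chloride and ligand-gated channel genes, GluClalpha (2.96) and Axs (0.79) rose and Grd (-1.51) and Best2 (-1.45) fell. Of 3 tested sodium and cyclic nucleotide-gated channel genes, 1 fell, Cng (-2.35). Several of these calls were lost when samples were left out: CG42594 and GluClalpha without any 1 sample other than control replicate 3, Irk2 without tumour-bearing replicate 1 or 2 or control replicate 1 or 2, and Grd without any tumour-bearing replicate or control replicate 1. Irk2 was -2.70 without tumour-bearing replicate 3, and GluClalpha 2.26 without control replicate 3.

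Marker genes of the tissues that express these channels moved as follows, beside 23.8% higher and 23% lower over all tested genes. Of 14 tested muscle markers, 10 fell and none rose, with a median log2 fold change of -2.73. Of 9 tested epidermal markers 7 fell and none rose, with a median of -2.49. Of 12 tested neuronal markers 3 rose (elav, 0.83, Syt1, 0.98, and Snap25, 1.17) and none fell, with a median of 0.41. That count of rises was near the share over all tested genes. Summed normalized counts of the neuronal markers ran from 10573 to 12750 in tumour-bearing and from 6780 to 10314 in control samples. Of 8 markers of sensory neurons and their support cells 3 rose and 1 fell, with sums from 1536 to 1891 in tumour-bearing and from 840 to 1343 in control samples. Much of the higher sum came from pon, with 938, 817 and 1069 normalized counts in tumour-bearing samples, against 99.9, 149 and 262 in control samples. Osm-1 (2.68) and unc (2.36) also rose, btv (-0.64) fell, and nompC (-0.92), nompA (-1.33), tilB (0.31) and dila (0.09) did not pass. Glial markers went both ways, 1 higher and 2 lower of 7. Haemocyte markers were higher in 6 of 7, with sums from 102506 to 279311 in tumour-bearing and from 33852 to 61280 in control samples. Tracheal markers fell in 4 of 7, fat body markers in 1 of 6, and eye disc and photoreceptor markers rose in 1 and fell in 1 of 6. The part of tissue composition in the channel values was not tested.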

How the data were processed

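RNA of 3 tumour-bearing and 3 control cuticle samples was sequenced by the authors from unstranded TruSeq libraries. The submitters' notes name TopHat, Bowtie, HTSeq, DESeq2 and build BDGP6, without versions. The authors deposited raw read counts per gene, whole numbers used for every test, and beside them normalized values and their own comparison (fold changes and p-values), which were not used. Samples were grouped by their labels.

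Counts were fitted with edgeR 4.0.16 in R 4.3.3 (filterByExpr, TMM factors, robust quasi-likelihood test, adjustment over 10074 genes, threshold 0.05). Normalized counts are counts over TMM-scaled library sizes, times their mean. Depth was 62617114 to 84149121 counts. Exon lengths, overlaps and coordinates came from the Ensembl annotation of BDGP6, in which all 46 members were found. The annotation version behind the deposited counts was not given, so these overlaps may differ from those met in the counting. Counting intervals are 95% and cover counting error only.

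Members past the test are given in full where their higher group averaged 50 normalized counts or more, as is the most abundant member of each class without such a gene; of the other channel lists, up to 2 changes in each direction are named. Stj, wtrw and Ca-alpha1D values, Ir25a, and the values of members that did not pass, were added after they were seen. Members and lists were chosen with earlier results of these data known, and 4 names that are not clearly channel or pump genes were taken out of the other lists afterwards, among them CG12004, which had been called lower. Alternatives were RLE, upper-quartile and total-count scaling, DESeq2 1.42.0, other filters, removal of the 20 genes with most counts, removal of each sample, and the replicate number as a block. Leaving samples out for the other lists, and setting control replicate 3 against the other controls, were chosen after seeing the data.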

Additional observations from a re-analysis of the deposited data

How the results depend on the processing

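Of the 15 channel genes that passed, 10 kept their call in all 14 alternatives and 12 in all but total counts. Total counts gave 22 members higher and 2 lower, 6189 genes higher and 695 lower over all tested genes (2393 and 2320 with TMM factors), and a member median log2 fold change of 1.65. The member median was 0.85 with no filter on low counts, and 0.72 to 0.97 with each sample left out. Leaving out each sample gave 9 to 13 members higher and 4 to 5 lower, and 1675 to 2590 genes higher and 1380 to 2548 lower, the last lowest without tumour-bearing replicate 2. Ork1 reversed its sign without tumour-bearing replicate 1 (-0.16, adjusted p = 0.925) and was 1.57 without control replicate 3. Members that did not pass and lay near 0 (ClC-b, ClC-c, SK, TrpA1, ppk19 and qvr) also changed sign in some alternatives, as qvr did with the replicate block (0.09), and Sh was 0.05 with total counts. DESeq2 called 14 members higher, with ppk6, Shal and trpl added, and 5 lower, with Sh added, beside 2681 and 2800 over all tested genes; Sh was also lower with RLE factors and without the 20 most abundant genes. With no filter, ppk11 was called higher and Shawl lower. Without the 20 most abundant genes the members' share of counts was 0.0852% in tumour-bearing and 0.0536% in control samples. Same-numbered samples did not deviate together (correlations -0.05, 0.07 and 0.11), nor did every sample correlate best with its own number, so the numbers give no pairing. With the replicate block, 9 members were higher and 4 lower, beside 1907 and 1665 over all tested genes, and ClC-a (adjusted p = 0.0734) and nAcRalpha-7E (adjusted p = 0.0636) did not pass. The cause of these shifts was not tested.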

Other observations

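All 5 glutamate receptor subunit genes of the larval neuromuscular junction fell, among them GluRIIA (log2 fold change -2.02, edgeR adjusted p = 0.00041) and GluRIIB (-2.18, edgeR adjusted p = 0.0025), while the auxiliary gene Neto did not pass. The call of GluRIIC was lost without any 1 sample other than control replicate 3. GluRIIA had 1390, 1308 and 1597 normalized counts in tumour-bearing samples, against 5491, 5599 and 6349 in control samples, far apart and with little spread. Of 15 tested pump and cotransporter genes, 6 fell, 1 rose and 8 did not pass, beside 23% lower and 23.8% higher over all tested genes. Among those that fell, PMCA lost its call without any tumour-bearing replicate or control replicate 1, and Nhe1 without tumour-bearing replicate 2 or 3 or control replicate 1. In this group the sarcoplasmic reticulum calcium pump Ca-P60A (SERCA, -3.00) and the sodium pump subunit Atpalpha (-1.67) had the largest falls, and nrv3, a beta subunit of the sodium pump found in the nervous system, rose (1.00).

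Among the 5 tested innexins, which form gap junctions in invertebrates, Inx3 (-2.31), Inx2 (-1.50) and ogre (-0.90) fell and shakB rose (2.90, edgeR adjusted p = 0.00040). Over all tested genes, 23% were lower and 23.8% higher. ShakB had 9138, 12039 and 12223 normalized counts in tumour-bearing samples, against 1599, 1550 and 1322 in control samples, with no overlap between the groups.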
